A study of Mus musculus with 8 samples.

Results

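The genes described here encode the core machinery that makes microRNAs and silences messages with them. They were chosen by name: Drosha, Dgcr8 and Xpo5, which serve the nuclear steps and export, Dicer1, the argonautes Ago1, Ago2 and Ago3, and the scaffold proteins Tnrc6a, Tnrc6b and Tnrc6c. All 10 members had a row among the 14162 genes of the table, and all 10 passed the filter on low values. RNA sequencing had been carried out on hepatic stellate cells of mice, which store vitamin A in the liver and turn into matrix-producing myofibroblasts on activation. Of the 8 libraries, 2 came from activated cells labelled miR-15a, 2 from activated cells with a control microRNA, 2 from activated cells with no microRNA named and 2 from quiescent cells, with replicates lettered a and b. C57BL/6J and SCID mice are named in the labels, but not the strain, sex or age behind a library, nor how the cells were activated or the microRNAs delivered. It is also not stated whether libraries a and b come from different animals or cultures. The p-values therefore reflect library-to-library spread, and that spread could be technical.

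Most microRNAs begin as a hairpin in a longer nuclear transcript. The Microprocessor, made of the ribonuclease Drosha and its RNA-binding partner Dgcr8, cuts the hairpin out, and the protein of Xpo5, exportin 5, carries it to the cytoplasm. There the ribonuclease Dicer trims it to a short duplex, an argonaute takes up one strand, and the argonaute recruits a TNRC6 protein (also called GW182), which in turn brings the enzymes that shorten the poly(A) tail and repress translation.

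The microRNA named in the labels is miR-15a, whose bases 2 to 8 form the seed that pairs with targets. In RefSeq (GRCm38.p6) its mature form is encoded on the minus strand of chromosome 14, from 61632075 to 61632096. It shares its seed with 9 other mature mouse microRNAs in that table, among them miR-16 and miR-195a. The sequences of these 3 are shown 5′ to 3′, with the seed in capitals, because the seed fixes which sites are sought in the member transcripts.
mmu-miR-15a-5p: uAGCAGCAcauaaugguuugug
mmu-miR-16-5p: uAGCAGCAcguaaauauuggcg
mmu-miR-195a-5p: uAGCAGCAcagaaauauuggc

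The 7-base DNA match to the seed, TGCTGCT, was sought on the transcript strand, in each gene's longest 3′ UTR by the GENCODE M21 annotation (GRCm38). It was present in 5 of the 10 members: once in Xpo5, once in Ago1, in 2 places in Ago2, and 4 times each in Ago3 and Tnrc6b. In Ago3, 2 of the 4 matches overlap, starting at bases 11987 and 11990 of the 3′ UTR. Drosha, Dgcr8, Dicer1, Tnrc6a and Tnrc6c had none in their longest 3′ UTR. Over all 12533 genes of the table with an annotated 3′ UTR, 23.9% held the match. Several member 3′ UTRs are long, and length alone makes a match more frequent. Among genes with a 3′ UTR within 10% of the same length, 76.0% held the match for Ago2 (11064 bases), 93.3% for Ago3 (12742 bases), 81.8% for Tnrc6b (11609 bases), 55.1% for Ago1 (4491 bases) and 24.0% for Xpo5 (1327 bases). A match is a sequence description and not evidence that the site is used.

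Stretches of 30 bases are shown for 5 matches on the transcript strand, 5′ to 3′, with the match in capitals, so that the sites can be set beside the seed above. They are the Xpo5 site (chr17:46242686-46242692, plus strand, exon 32), the Ago1 site (chr4:126437947-126437953, minus strand, exon 19), both Ago2 sites (chr15:73105311-73105317 and chr15:73096442-73096448, minus strand, exon 19) and the Tnrc6b site at chr15:80931456-80931462 (plus strand, exon 25). All lie in the last exon of the transcript used. The Tnrc6b site was the only member match with an A after it.
Xpo5: caagggtcccacttgagcccctTGCTGCTg
Ago1: ctctggacaggctggggaatttTGCTGCTc
Ago2, first site: aggagacgagccttctcttgtgTGCTGCTc
Ago2, second site: ccattgagatcttttatattcaTGCTGCTt
Tnrc6b: acctctgctgtcctctgtgactTGCTGCTa

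The deposited values are whole-number scores, and, judged from the values themselves, they were normalized between libraries in a step that is not recorded, so they are not treated as raw data. The same 910 distinct values occur in each of the 8 libraries, and library totals lie 0.409% apart, so the sequencing depth is unknown and no counting error can be given. Between libraries a and b of a group, Pearson's r over genes on the log2 scale was 0.986 to 0.990. The members ranged from 80 to 1168, far below the shared maximum of 125636, and neighbouring values in that range lie at most 2.08% apart, so none was affected by the ceiling. A gene was called when limma, fitted on log2(score + 5) over 13150 genes and all 8 libraries, gave a Benjamini-Hochberg adjusted p under 0.05. Fold changes are on that scale, which slightly understates those of low genes.

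The groups also differed in 2 sex-linked genes, chosen after their values were seen. The X-inactivation transcript Xist scored 3373 in both miR-15a libraries, 3373 and 5027 for the control microRNA, 169 and 21 in activated cells and 8724 in both quiescent libraries. Ddx3y, a gene of the Y chromosome, scored 1046 and 1006 with miR-15a, 1282 and 1268 for the control microRNA, 2606 and 2570 in activated cells and 44 and 40 in quiescent cells. In each comparison with activated cells, whether of quiescent cells or of a microRNA group, a difference in the animals and the labelled condition cannot be told apart.

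The libraries also differed in markers of other liver cell types. Of 12 endothelial markers all 12 were lower in activated than in quiescent cells and all 12 higher with miR-15a than with the control microRNA. Their summed score was 10083 to 10162 with miR-15a, 302 to 490 with the control microRNA, 102 to 257 in activated cells and 166055 to 235442 in quiescent cells. The 11 measured macrophage markers followed the same course, with sums of 10780 to 11661 with miR-15a, 1181 to 1215 with the control microRNA, 823 to 1026 in activated and 143371 to 167902 in quiescent cells. All 11 measured hepatocyte markers were lower in activated than in quiescent cells, and 1 of the 11 was called higher with miR-15a than with the control microRNA. Their sums were 1403 to 1988 with miR-15a, 203 to 1270 for the control microRNA, 314 to 413 in activated cells and 13587 to 15804 in quiescent cells. No marker of these lists was at 0 in both libraries of a group. The 10 markers of activated stellate cells, such as Acta2, summed to 516531 to 525757 in activated cells and to 3078 to 3495 in quiescent cells. Their sum was 358094 to 478287 with miR-15a and 393062 to 446129 with the control microRNA, and between these groups 3 were called lower with miR-15a and none higher. Acta2, Col1a2 and Lox were at the shared maximum of 125636 in both activated libraries. Col1a2 was there in the microRNA libraries too, as was Acta2 in library a of both groups and Lox in miR-15a library a. The sums of all activated groups are therefore capped. Acta2 was at 58193 in library b of both microRNA groups. The endothelial marker Stab2 was at the maximum in quiescent library a and at 58193 in quiescent library b. Of 10 stellate cell markers 9 had a row, and 4 were higher and 5 lower in activated than in quiescent cells. Their sum was 5463 to 5633 with miR-15a, 6864 to 7589 for the control microRNA, 8220 to 8592 in activated cells and 12201 to 13120 in quiescent cells, and different genes made it up. Pdgfrb was at 7286 and 7720 in activated cells, against 386 and 335 in quiescent cells. Reln was at 14 and 22 in activated cells, against 7724 and 8724 in quiescent cells. Of these 9 stellate markers 3 were called higher and 3 lower with miR-15a than with the control microRNA (median log2 fold change 0.62). In bulk RNA, fewer cells of a type and less RNA per cell cannot be told apart, and the part of other cell types in the results below was not tested.

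**Figure D1:**
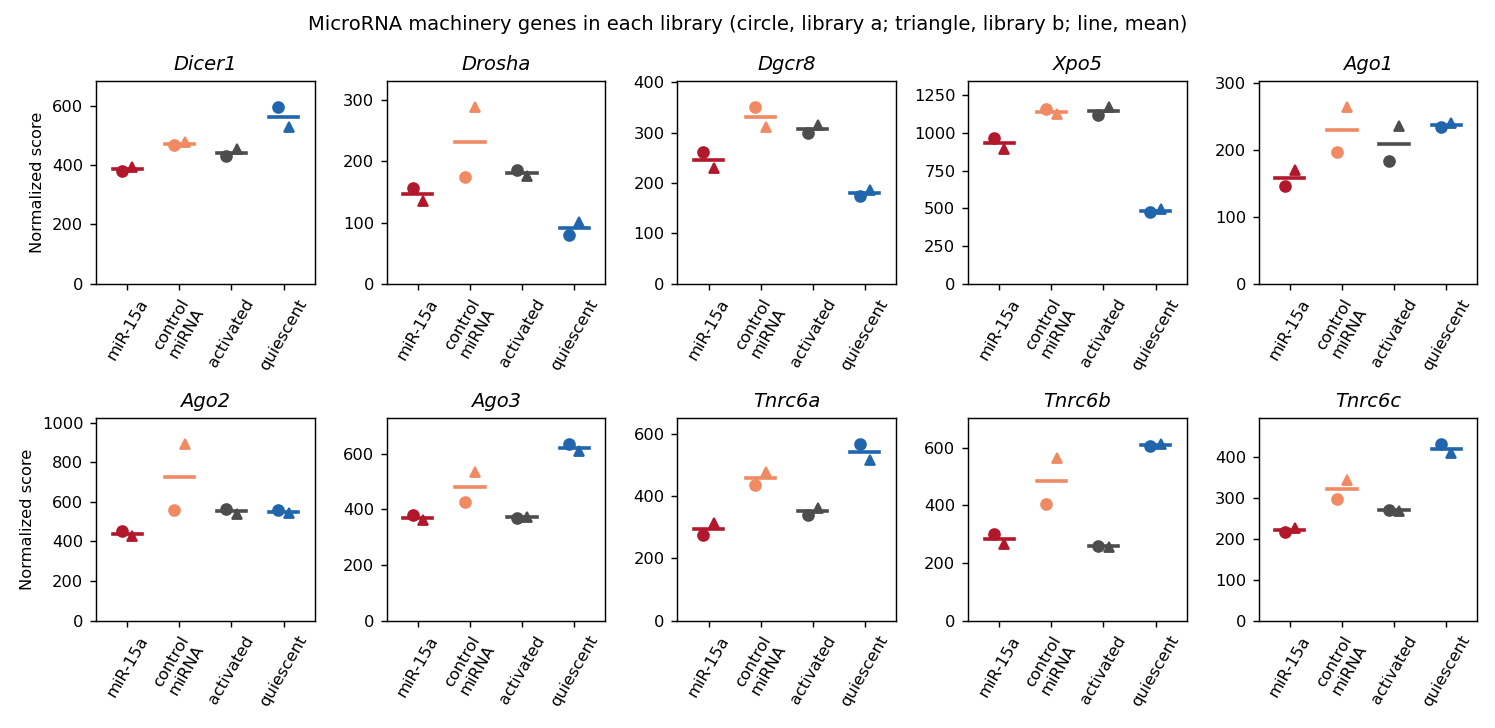
Scores of the 10 genes in every library, one panel per gene, with the groups on the horizontal axis and the normalized score on the vertical axis, which starts at 0 in each panel. Circles are library a, triangles library b and lines the mean of both. Drosha, Dgcr8 and Xpo5 are lowest in quiescent cells, Dicer1, Ago3 and the 3 Tnrc6 genes are highest there, and library b of the control microRNA stands above its partner for Drosha, Ago2 and Tnrc6b.

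Genes of the nuclear steps were higher in activated than in quiescent cells. Xpo5 (ENSMUSG00000067150.6, chromosome 17, 46202782 to 46243598, plus strand, GRCm38) scored 966 and 896 with miR-15a, 1155 and 1124 under the control microRNA, 1118 and 1168 in activated cells and 473 and 495 in quiescent cells. All 6 activated libraries stood well above the quiescent pair, and the miR-15a libraries were the lowest of the 6. Activated cells had 2.35 times the quiescent level (log2 fold change 1.23 ± 0.07 SE, n = 2 each, limma, adjusted p = 1.2e-06). With miR-15a Xpo5 fell by 0.29 on the log2 scale against the control microRNA (SE 0.07, adjusted p = 0.015) and fell by 0.30 against activated cells (SE 0.07, adjusted p = 0.011). The control microRNA and activated groups overlapped and differed by -0.00 (95% interval -0.16 to 0.15), or by 0.043 with median-of-ratios scaling.

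Dgcr8 (ENSMUSG00000022718.12, chromosome 16, 18253948 to 18289246, minus strand), which grips the hairpin for Drosha, was likewise lowest in quiescent cells. It scored 261 and 230 with miR-15a, 350 and 312 under the control microRNA, 300 and 315 in activated cells and 174 and 186 in quiescent cells. It rose by 0.76 ± 0.10 in activated over quiescent cells (limma, adjusted p = 2.7e-04) and was lower with miR-15a by -0.42 ± 0.10 against the control microRNA (adjusted p = 0.020) and by -0.32 ± 0.10 against activated cells (adjusted p = 0.043). The exons of Dgcr8 share 10.7% of their bases with Trmt2a on the other strand, and whether reads were assigned by strand is not given in the sources used here.

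Drosha (ENSMUSG00000022191.16, chromosome 15, 12824815 to 12935291, plus strand), the nuclease itself, held the lowest score of any member. It stood at 156 and 136 with miR-15a, 174 and 288 under the control microRNA, 186 and 176 in activated cells and 80 and 101 in quiescent cells. Its rise of 0.97 ± 0.23 in activated over quiescent cells passed (limma, adjusted p = 0.0053). The miR-15a libraries were below both control microRNA libraries, and the fold change of -0.60 ± 0.23 did not pass (limma, adjusted p = 0.087). Neither microRNA group passed against activated cells (-0.30 ± 0.23 with miR-15a and 0.30 ± 0.23 under the control microRNA, the second being -0.055 without control library b).

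Dicer1 differed between activated and quiescent cells in the other direction from the nuclear genes. The gene (ENSMUSG00000041415.10, chromosome 12, 104687742 to 104751952, minus strand) scored 381 and 392 with miR-15a, 468 and 477 under the control microRNA, 429 and 454 in activated cells and 594 and 528 in quiescent cells. No groups overlapped, and the order ran from quiescent cells at the top to miR-15a at the bottom. Dicer1 fell by 0.34 on the log2 scale in activated over quiescent cells (SE 0.08, limma, adjusted p = 0.0051) and fell by 0.29 with miR-15a against the control microRNA (SE 0.08, adjusted p = 0.032). Against activated cells the differences did not pass, at -0.19 ± 0.08 with miR-15a (adjusted p = 0.0998) and 0.10 ± 0.08 under the control microRNA (adjusted p = 0.44). The call against the control microRNA was lost under 9 of 16 alternatives, among them each that left out 1 library of the activated, miR-15a or control group (limma, adjusted p = 0.052 to 0.12).

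The ratio of Xpo5 to Dicer1 within a library is free of any single scale factor given to that library, though not of a normalization that reshapes its values. It was 2.54 and 2.29 with miR-15a, 2.47 and 2.36 under the control microRNA, 2.61 and 2.57 in activated cells and 0.796 and 0.938 in quiescent cells. The scores of exporter and nuclease therefore stood in a similar ratio in all 6 activated libraries, and in a lower one in both quiescent libraries.

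The 3 argonautes did not move as one. Ago2 (ENSMUSG00000036698.11, chromosome 15, 73095844 to 73184935, minus strand), the member of the family that can cut a fully paired target, scored 454 and 425 with miR-15a, 561 and 891 under the control microRNA, 566 and 537 in activated cells and 556 and 542 in quiescent cells. Activated and quiescent cells overlapped, with a difference of 0.01 (95% interval -0.43 to 0.44), or of -0.22 with median-of-ratios scaling. The miR-15a libraries were below the other 6. Against the control microRNA Ago2 fell by 0.68 on the log2 scale (SE 0.19, limma, adjusted p = 0.030), and the log2 fold change was -0.35 without control library b (adjusted p = 0.037) and -1.01 without control library a. That call was lost under 9 of the 16 alternatives. The difference from activated cells, -0.32 ± 0.19, did not pass (adjusted p = 0.21), although it did when either control microRNA library was left out of the fit (adjusted p = 0.013 and 0.014). All groups share 1 estimate of the error in each fit.

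Ago3 (ENSMUSG00000028842.15, chromosome 4, 126331704 to 126429556, minus strand) was higher in quiescent cells than in any activated group. It scored 378 and 362 with miR-15a, 425 and 534 under the control microRNA, 368 and 374 in activated cells and 634 and 610 in quiescent cells. It fell by 0.74 on the log2 scale in activated over quiescent cells (SE 0.11, limma, adjusted p = 4.1e-04). With miR-15a and in activated cells the levels overlapped, with a difference of -0.00 (95% interval -0.26 to 0.25), or of 0.095 with median-of-ratios scaling. Its decrease with miR-15a against the control microRNA (-0.36 ± 0.11, adjusted p = 0.041) lies beside a control group that stood 0.36 ± 0.11 above activated cells (adjusted p = 0.066). That call was lost without control library b (-0.20, adjusted p = 0.15) and under 12 of the 16 alternatives in all.

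Ago1 (ENSMUSG00000041530.16, chromosome 4, 126435012 to 126468583, minus strand), the neighbour of Ago3 on the chromosome, passed in no comparison. It scored 146 and 171 with miR-15a, 198 and 264 under the control microRNA, 184 and 236 in activated cells and 235 and 241 in quiescent cells. The miR-15a libraries were the lowest of the 8, and the fold change of -0.52 ± 0.17 against the control microRNA missed the threshold (limma, adjusted p = 0.057), though it passed without control library a (-0.72, adjusted p = 0.028). Activated and quiescent cells differed by -0.19 (95% interval -0.59 to 0.22). Argonaute genes resemble each other in sequence, and how reads that fit more than 1 of them were counted is not given in the sources used here.

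The 3 TNRC6 genes, whose proteins link argonaute to the deadenylases, fell together in activated over quiescent cells. Tnrc6b (ENSMUSG00000047888.10, chromosome 15, 80711313 to 80941085, plus strand) scored 302 and 265 with miR-15a, 404 and 566 under the control microRNA, 260 and 256 in activated cells and 608 and 613 in quiescent cells. Its fall of -1.23 ± 0.15 was the largest decrease among the members (limma, adjusted p = 1.4e-04). Tnrc6a fell by 0.62 (SE 0.10, adjusted p = 6.3e-04) and Tnrc6c fell by 0.63 (SE 0.09, adjusted p = 4.0e-04).

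Tnrc6a (ENSMUSG00000052707.8, chromosome 7, 123123885 to 123195296, plus strand) scored 275 and 312 with miR-15a, 434 and 478 under the control microRNA, 338 and 362 in activated cells and 566 and 515 in quiescent cells. Tnrc6c (ENSMUSG00000025571.13, chromosome 11, 117654289 to 117763439, plus strand) scored 216 and 225 with miR-15a, 298 and 344 under the control microRNA, 270 and 268 in activated cells and 431 and 409 in quiescent cells. For both genes no groups overlapped, and the order was quiescent, control microRNA, activated, miR-15a from high to low. Tnrc6b kept this order except that the miR-15a libraries stood above the activated ones.

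Against the control microRNA all 3 TNRC6 genes were lower with miR-15a, Tnrc6b by -0.75 ± 0.15 (limma, adjusted p = 0.0096), Tnrc6a by -0.63 ± 0.10 (adjusted p = 0.0034) and Tnrc6c by -0.53 ± 0.09 (adjusted p = 0.0055). These 3 calls held without control library b. Against activated cells Tnrc6c alone of the 3 passed (-0.28 ± 0.09, adjusted p = 0.046), while Tnrc6a was at -0.25 ± 0.10 (adjusted p = 0.078) and Tnrc6b at 0.13 ± 0.15 (adjusted p = 0.52). The control microRNA group itself stood above activated cells for Tnrc6b (0.88 ± 0.15, adjusted p = 0.012) and Tnrc6a (0.38 ± 0.10, adjusted p = 0.045), and the Tnrc6a call was lost under 12 of the 16 alternatives. For Tnrc6b both microRNA groups stood above activated cells, which also differed in Xist and Ddx3y. The source of the difference between the microRNA groups was not tested.

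**Figure D2:**
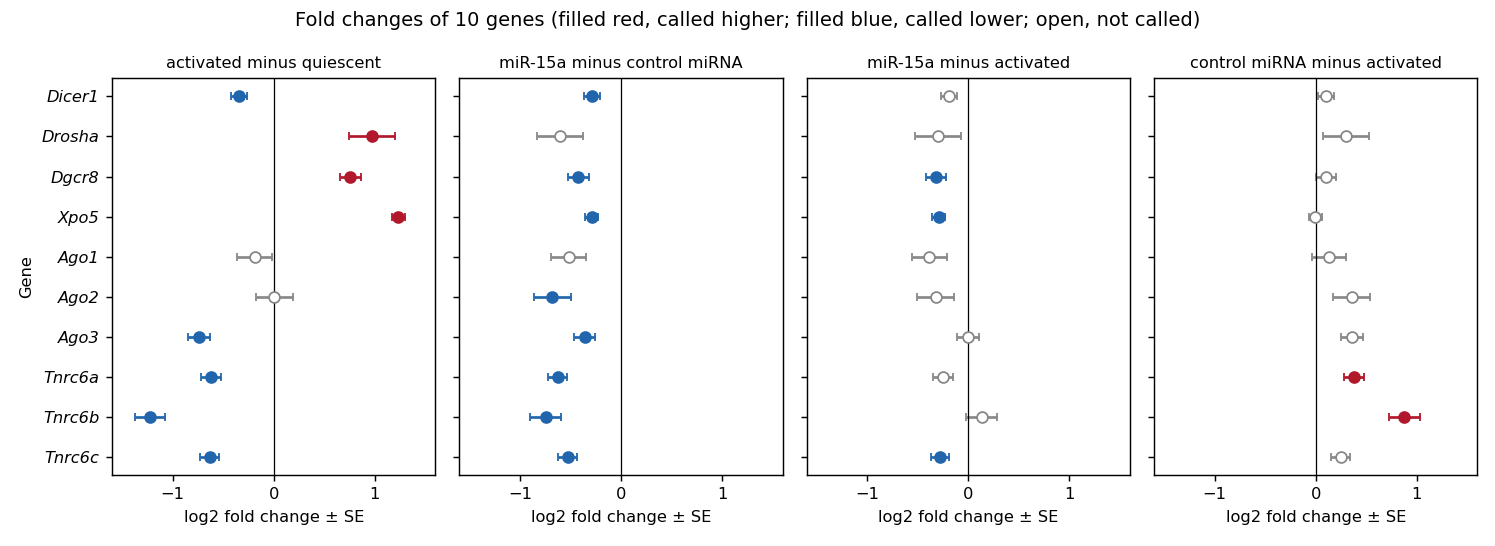
Log2 fold changes of the 10 genes on the log2(score + 5) scale, with 1 panel per comparison and bars of 1 SE from the limma fit. The first panel splits into 3 genes called higher and 5 called lower, the second shows all 10 genes below 0 with 8 called, and the last 2 show where the miR-15a and control groups stood against activated cells.

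Over the 10 members, 3 were called higher and 5 lower in activated over quiescent cells, where 79.5% of all tested genes were called, 45.4% higher and 34.1% lower. The members' median was -0.26, and that of all tested genes 0.21. The share of members called was thus that of all genes, and the count says nothing particular to the members. By direction, Drosha, Dgcr8 and Xpo5 rose, Dicer1, Ago3 and the 3 TNRC6 genes fell, and Ago1 and Ago2 did not pass. All 8 calls and their directions held under every one of the 16 alternatives, including median-of-ratios scaling, which moved the median of all genes to -0.01.

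Between miR-15a and the control microRNA, 8 members were called lower and none higher, where 29.9% of all tested genes were called, 15.4% lower and 14.4% higher. The 10 fold changes ran from -0.75 for Tnrc6b to -0.29 for Dicer1. Their median was -0.52, against -0.07 over all tested genes, of which 57.1% were below 0. In all 10 genes the miR-15a libraries lay below both control libraries. The share of all tested genes that separate in this way was not computed, so that count has no background beside it. Markers of endothelial cells and macrophages rose in the same comparison, and the hepatocyte sum was higher, as given above. In that hepatocyte sum Alb was at 744 and 1056 with miR-15a, against 48 and 640 with the control microRNA. The stellate sum was lower, while 3 stellate markers were called higher and 3 lower. Pdgfrb made up most of the stellate sum, at 4665 and 4776 with miR-15a and 6000 and 6822 with the control microRNA. Neither sum therefore describes its list as a whole. The part of these markers in the members' values was not tested.

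Against activated cells with no microRNA named, which also differed in Xist and Ddx3y, Dgcr8, Xpo5 and Tnrc6c were called lower with miR-15a and none higher, where 38.4% of all tested genes were called, 21.6% lower and 16.8% higher. The split over all genes was 2204 higher and 2841 lower, and with median-of-ratios scaling 2798 higher and 1929 lower, where Xpo5 was the only member called. Among the members 9 of 10 were below 0, Ago3 of these only at -0.00, where 58.7% of all tested genes were below 0. The members' median was -0.29, against -0.10 over all tested genes. The share of members called was below the share of all genes, and no member was called without activated library b or without miR-15a library b. The control microRNA against activated cells had Tnrc6a and Tnrc6b called higher and none lower, where 13.8% of all tested genes were called, 7.18% higher and 6.61% lower. That split was 944 higher and 869 lower, and 1175 and 637 with median-of-ratios scaling. The members' median there was 0.27, against -0.03 over all tested genes, and no member was called without activated library a or without activated library b. The comparisons share libraries, so their values stand side by side and do not support each other.

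Library b of the control microRNA stood apart for several members. Its score exceeded that of library a by 0.71 for Drosha, 0.66 for Ago2, 0.48 for Tnrc6b and 0.41 for Ago1 on the log2(score + 5) scale. In this group 8 of 10 members were higher in library b, with a median of 0.26, while 40.0% of all tested genes were higher there, with a median of -0.03. The hepatocyte markers also set it apart, with Alb at 48 and 640, Fgb at 0 and 38 and Ahsg at 2 and 32 in control libraries a and b, and their part in the members' values was not tested. In the other groups the members' median difference between libraries b and a was -0.08 with miR-15a, 0.04 in activated cells and -0.01 in quiescent cells. Without control library b, 6 members were still called lower with miR-15a (Dgcr8, Xpo5, Ago2 and the 3 TNRC6 genes), where 18.2% of tested genes were called, and the members' median was -0.33. Without control library a, 7 were called lower and the median was -0.66. Leaving out miR-15a library b had a larger effect on the calls: Tnrc6a and Tnrc6c were then the only 2 members called lower, and Tnrc6a the only 1 when the fit held these 4 libraries alone. In fits without a library the remaining library of its group is assumed to vary like the other groups. In each of these fits the share of all tested genes called was also below the 29.9% of the full fit. In the fit of 4 libraries it was 15.9%.

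**Figure D3:**
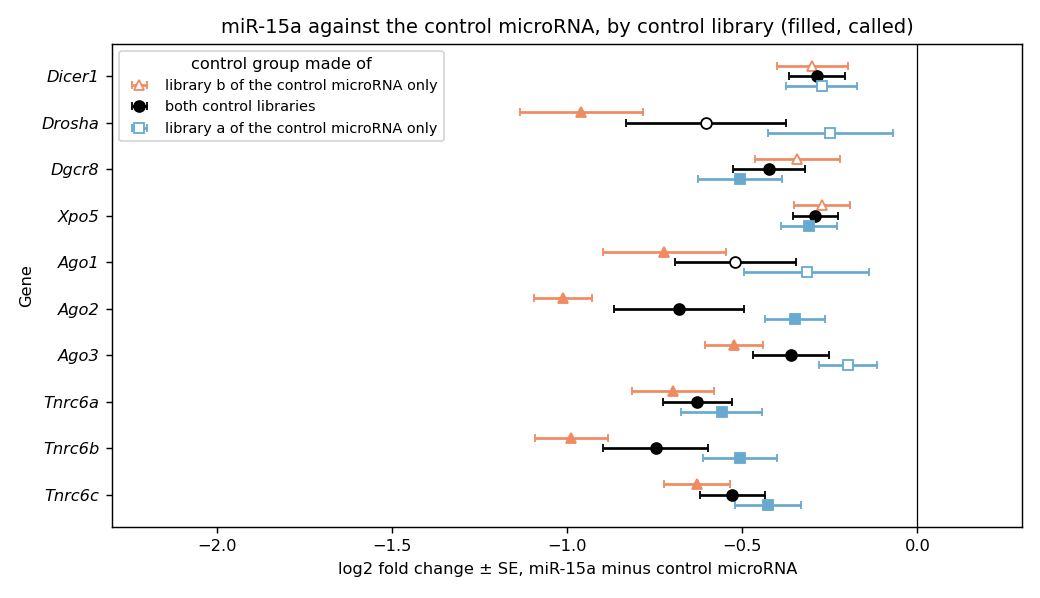
Log2 fold change of each gene with miR-15a against the control microRNA (horizontal axis, bars of 1 SE), with both control libraries and with either one alone. Filled symbols passed the adjusted threshold. All values lie below 0, and Drosha, Ago1, Ago2, Ago3 and Tnrc6b move furthest with the choice of control library.

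Levels can be compared between genes only per length. Per kilobase of merged exon, Xpo5 was the highest member in every group, at 136 ± 7.22 with miR-15a, 166 ± 3.20 under the control microRNA, 167 ± 5.15 in activated cells and 70.6 ± 2.27 in quiescent cells (mean ± SD, n = 2 each). Tnrc6b was the lowest in the 3 activated groups, at means of 11.97 with miR-15a, 20.5 under the control microRNA and 10.9 in activated cells. In quiescent cells Drosha was the lowest, at 15.2 ± 2.50, against 25.8 ± 0.15 for Tnrc6b. Among the 3 argonautes Ago2 took 44.2% and 41.4% of the summed score per kilobase with miR-15a, 44.4% and 49.5% under the control microRNA, 47.3% and 42.6% in activated cells and 37.1% and 36.7% in quiescent cells. Ago2 thus held the largest share of the 3 in each of the 8 libraries, and its share was lowest in the quiescent pair. The exon lengths are those of all annotated transcripts merged, and those in use in these cells may be shorter.

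**Figure D4:**
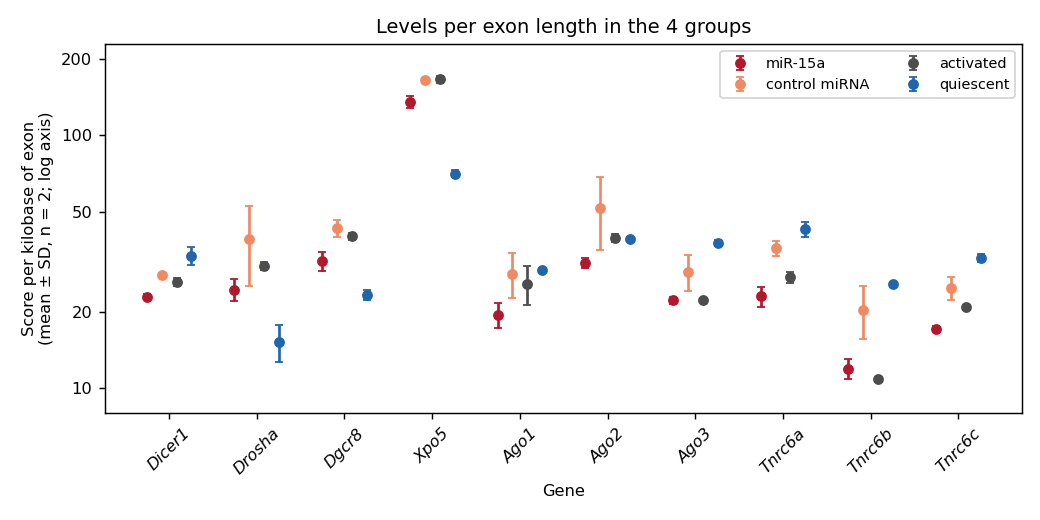
Score per kilobase of merged exon for the 10 genes in the 4 groups (mean ± SD of 2 libraries, log axis). Xpo5 stands above the other genes in every group, and quiescent cells have the lowest point of their gene for Drosha, Dgcr8 and Xpo5.

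Across the 8 libraries the members fell into a pair of sets, given as a description since the libraries share groups. Drosha, Dgcr8 and Xpo5 correlated at a Pearson r of 0.87 to 0.96 with each other. Dicer1, Ago3 and the 3 TNRC6 genes correlated at 0.82 to 0.98 with each other, and each of the nuclear genes correlated at -0.77 to -0.30 with each of these 5. Ago1 correlated at 0.66 to 0.84 with these 5 genes and Ago2 at 0.41 to 0.56, while with the nuclear genes Ago1 was at -0.27 to 0.03 and Ago2 at 0.18 to 0.56. Outside the members, the genes most like Dicer1 over the 8 libraries were Wdr96 (r = 0.99), Gtf3c2 (0.98) and Snora31 (0.98), those most like Drosha were Frs2 (0.99), Clasp1 (0.98) and Uxs1 (0.97), and those most like Ago2 were Qser1 (0.98), Inf2 (0.97) and Tnrc18 (0.96). Inf2 and Tnrc18 were also high in control library b, Inf2 with 800 and 1664 and Tnrc18 with 662 and 1508 in control libraries a and b.

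Members with a seed match were set beside those without one. Against the control microRNA, the median over the 5 members with a match was -0.52 on the log2 scale, and that over the 5 others was -0.53. In each set 4 were called lower, where 15.4% of all tested genes were. Against activated cells the medians were -0.30 with a match and -0.28 without. There 1 and 2 were called lower, where 21.6% of all tested genes were. The sets also differed in 3′ UTR length, at 1327 to 12742 bases with a match and 169 to 3851 without. Whether any site is used was not tested. Tnrc6b and Ago3, with 4 matches each (2 of those in Ago3 overlapping), had the highest fold changes of the 10 against activated cells (0.13 and -0.00). Against the control microRNA Tnrc6b had the lowest of the 10 (-0.75), and Ago3 was at -0.36. The order of these genes thus depended on the reference group. With the 6-base match GCTGCT, to bases 2 to 7 of miR-15a, 9 members had a site (all but Drosha), as did 44.0% of all genes with an annotated 3′ UTR.

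The seed family is also made from host transcripts that the table measured. The mature miR-15a and one copy of miR-16 lie inside Dleu2 (chromosome 14, 61602839 to 61682373, minus strand), and miR-15b and the other copy of miR-16 lie inside Smc4 (chromosome 3, 69004738 to 69034623, plus strand), which encodes a condensin subunit used in mitosis. Dleu2 scored 76 and 84 with miR-15a, 72 and 78 under the control microRNA, 75 and 83 in activated cells and 151 and 160 in quiescent cells. It fell by 0.94 on the log2 scale in activated over quiescent cells (SE 0.13, limma, adjusted p = 2.6e-04) and did not pass elsewhere. Smc4 scored 756 and 881 with miR-15a, 1156 and 1118 under the control microRNA, 1198 and 1182 in activated cells and 429 and 409 in quiescent cells. Activated cells had 2.82 times the quiescent level (limma, adjusted p = 1.4e-06), and Smc4 was lower with miR-15a by -0.48 ± 0.08 against the control microRNA (adjusted p = 0.0051). The hosts of these related microRNAs thus moved in opposite directions between activated and quiescent cells. The 10 proliferation markers summed to 4577 to 4802 with miR-15a, 6228 to 6681 with the control microRNA, 6771 to 6947 in activated cells and 2309 to 2429 in quiescent cells, and their part in the Smc4 result was not tested. These libraries measure host transcripts and not the mature microRNAs.

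Around the core machinery, 12 cofactors of the nuclear step and export factors were measured. In activated over quiescent cells 7 of them were called lower and 3 higher, where 34.1% of all tested genes were called lower and 45.4% higher. The helicases Ddx5 and Ddx17, which assist the Microprocessor, fell by 1.01 and fell by 1.21 on the log2 scale (SE 0.07 and 0.08), and the splicing factor Srsf3 fell by 0.52. With miR-15a against the control microRNA 3 of the 12 were lower and none higher, where 29.9% of all tested genes were called. They were Khsrp (-0.67 ± 0.13), which binds certain hairpin loops, the general exporter Xpo1 (-0.35 ± 0.07) and Zc3h18 (-0.37 ± 0.07).

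Among 13 genes for partners of Dicer and for loading of argonaute, 6 were higher and 4 lower in activated over quiescent cells, near the 79.5% of all tested genes called. Prkra, a double-stranded RNA-binding partner of Dicer, rose by 1.58 ± 0.13 and the chaperone Hsp90aa1 by 1.21 ± 0.05. Adar, an RNA-editing enzyme with an interferon-inducible form, was at 434 and 458 with miR-15a, 244 and 325 under the control microRNA, 244 and 216 in activated cells and 1386 and 1486 in quiescent cells. It fell by 2.62 in activated over quiescent cells and rose by 0.65 ± 0.13 with miR-15a against the control microRNA (limma, adjusted p = 0.011). The sum of 9 interferon response genes was 9236 to 10067 with miR-15a, 1288 to 1305 with the control microRNA, 535 to 718 in activated cells and 60370 to 61853 in quiescent cells. Its part in the Adar result was not tested. Of the 13 genes 2 rose and 1 fell with miR-15a against the control microRNA, where 29.9% of all tested genes were called, with the chaperone Hspa8 at 0.47 ± 0.08 and Hsp90ab1 at -0.42 ± 0.13. Ago4, the argonaute outside the 10, fell by 0.92 in activated over quiescent cells (SE 0.19, adjusted p = 0.0027).

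Of 17 argonaute regulators and RNA-binding partners 9 rose and 6 fell in activated over quiescent cells, where 45.4% of all tested genes were called higher and 34.1% lower. P4ha1, a prolyl hydroxylase subunit that serves collagen and has also been linked to Ago2, rose by 2.93 ± 0.06, and the LIM protein gene Ajuba rose by 2.73 ± 0.09. Mov10, a helicase found with argonaute, fell by 2.85 (SE 0.15). With miR-15a against the control microRNA 4 of the 17 fell and 1 rose, where 29.9% of all tested genes were called. Fmr1, the gene of the fragile X protein, fell by 0.56 (SE 0.07, limma, adjusted p = 0.0012), the importin gene Ipo8 fell by 0.25 (SE 0.06), and Wtip rose by 0.63 ± 0.12.

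Genes that act downstream of TNRC6 are set against the same shares of all tested genes in activated over quiescent cells, 34.1% lower and 45.4% higher. Of 18 genes of the CCR4-NOT and PAN deadenylases and poly(A) binding 9 fell and 5 rose. Pan3, a subunit of the PAN deadenylase, fell by 1.65 (SE 0.08) and Tob2, an adaptor of CCR4-NOT, fell by 1.91 (SE 0.09), while the poly(A)-binding protein gene Pabpc4 rose by 1.17 ± 0.08. Of 16 genes of translational repression, decapping and decay 9 fell and 3 rose. Dcp2, the decapping enzyme, fell by 2.55 (SE 0.07) and its activator Patl1 fell by 3.06 (SE 0.13), whereas Eif4e2, a cap-binding repressor, rose by 1.20 ± 0.07. Patl1 was at 74 and 89 in activated cells, against 748 and 678 in quiescent cells.

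With miR-15a against the control microRNA 29.9% of all tested genes were called. In the deadenylase list 3 fell and 1 rose, with Tob2 at -0.47 ± 0.09, Pabpc4 at -0.34 ± 0.08 and Tob1 at -0.63 ± 0.17. In the decapping and repression list 1 fell and 1 rose, Edc4, a scaffold of the decapping complex, at -0.33 ± 0.08 and the helicase gene Eif4a1 at 0.63 ± 0.06, while Dcp2 did not pass (-0.21 ± 0.07, limma, adjusted p = 0.052). The medians of these lists were -0.14 and -0.22, against -0.52 for the 10 members and -0.07 over all tested genes.

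Of 12 measured genes that tail, trim or degrade microRNAs 7 fell and 4 rose in activated over quiescent cells, where 34.1% of all tested genes were called lower and 45.4% higher. Zswim8, the ubiquitin ligase adaptor of target-directed microRNA decay, fell by 53.5% in level, Zcchc6, the uridylyltransferase also named Tut7, fell by 1.27 on the log2 scale (SE 0.09), and Zc3h12a, a nuclease of inflammatory messages, fell by 2.93 (SE 0.25). With miR-15a against the control microRNA 2 of the 12 rose and none fell, where 29.9% of all tested genes were called. They were Pnpt1, a mitochondrial exoribonuclease, at 0.59 ± 0.08 and Xrn2, a nuclear exoribonuclease, at 0.55 ± 0.10, while Tsnax, a subunit of the nuclease C3PO, did not pass (-0.25 ± 0.08, limma, adjusted p = 0.054).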

How the data were processed

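RNA of 8 libraries was sequenced from TruSeq libraries, per the labels' protocols. STAR, Subread, featureCounts and the build mm10 are named in the submitters' processing notes, with no settings. The deposited table is named as read counts but holds a score per gene that, judged from the values shared by every library, looks like the output of quantile normalization and rounding. No label or file header describes that step. Its values were used as deposited. A gene entered the test if 2 or more libraries scored 10 or higher. Testing used limma (version 3.58.1, R 4.3.3) on log2(score + 5), with 4 group means over all 8 libraries, 4 residual degrees of freedom, a variance prior following the mean and Benjamini-Hochberg adjustment over 13150 genes. Lists are described by counts and medians. The procedure was tested on simulated data.

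All 10 members are named. Of each further list, up to 3 genes with the smallest p in each of 2 comparisons are named (activated over quiescent, and miR-15a over the control microRNA), with the host transcripts and the 3 genes correlating best with Dicer1, Drosha and Ago2. Members and lists were chosen with earlier results of these data known. Gene positions, exons and 3′ UTRs came from GENCODE M21 (GRCm38, which mm10 corresponds to) and microRNA sequences from RefSeq (GRCm38.p6). Alternatives covered scaling, filters, pseudocounts, the libraries in the fit, a replicate block, the variance prior and each library left out.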

Additional observations from a re-analysis of the deposited data

How the results depend on the processing

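The 3 higher and 5 lower calls of activated over quiescent cells held under all 16 alternatives; the other counts moved. Against the control microRNA, where 8 members were called lower with miR-15a, 5 were called with one variance prior and 1 with those 4 libraries only, and leaving out each library gave 2 to 7. Against activated cells, where 3 were called, 1 was called with median-of-ratios scaling and 1 with one variance prior. There 35.9% and 35.3% of all tested genes were called. The members' median ran from -0.29 to -0.24 with a library left out. For the control microRNA over activated cells, 2 were called higher. The count was 1 with pseudocount 1, 1 with one variance prior and 0 with those 4 libraries only. The shares of all tested genes called were 11.9%, 14.9% and 2.1%. With a library left out, the members' median ran from 0.11 to 0.40.

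Differences between libraries a and b correlated at -0.067 to 0.087 between groups. Whether the letters pair the samples is not stated in the labels, and low correlations cannot settle it, since a weak shared effect could be missed. A replicate block gave 1 call for the control microRNA over activated cells, where 11.3% of all tested genes were called. The block also added Ago1 to the genes lower with miR-15a than with the control microRNA and removed Ago3.

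None of the fold changes that changed sign was called. Median-of-ratios scaling gave -0.22 for Ago2 in activated over quiescent cells, 0.095 for Ago3 with miR-15a over activated cells and 0.043 for Xpo5 with the control microRNA over activated cells. With a library left out these ran from -0.031 to 0.044, from -0.035 to 0.027 and from -0.036 to 0.027. With the control microRNA over activated cells Drosha ran from -0.055 to 0.66 and Ago1 from -0.072 to 0.33. The cause of these moves was not tested.

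Over all tested genes, 3926 were called between the microRNA groups, but 2093 with those 4 libraries only, 2381 without miR-15a library b and 2385 without control library b. With miR-15a over activated cells 5045 were called, but 3253 and 2655 without activated library a or b and 3308 without miR-15a library b. With the control microRNA over activated cells 1813 were called, but 276 with those 4 libraries only, 682 and 503 without activated library a or b and 675 without control library b. Depth is unknown, so no limit from counting can be given, and 2 libraries a group leave 4 residual degrees of freedom.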

Other observations

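The high values of control library b reached other silencing genes, chosen here after their values were seen. Cnot1, the scaffold of the CCR4-NOT deadenylase, scored 725 and 732 with miR-15a, 756 and 1362 under the control microRNA, 648 and 663 in activated cells and 1215 and 1198 in quiescent cells. Ddx6, a helicase that CCR4-NOT recruits to silenced messages, scored 1050 and 1068 with miR-15a, 1118 and 1896 under the control microRNA, 1050 and 1068 in activated cells and 2330 and 2385 in quiescent cells. For Cnot1 control library b was the highest of the 8 libraries, and for Ddx6 it stood between the quiescent pair and the other 5.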
